A study of Mus musculus with 2 samples.

Results

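The genes described here are the 3 Runx transcription factor genes of the mouse, Runx1, Runx2 and Runx3, and Cbfb, which encodes their shared partner CBFβ. They were chosen by symbol, and all 4 were present among the 48321 gene symbols counted in both libraries. RNA-seq was carried out on sorted CD4- mature thymocytes of MHC-II0:CD8ab Tg mice on the C57Bl/6 background, in 2 replicates of 1 group. These mice lacked the MHC class II β chain (I-Ab-/-), carried Cd8 alleles disrupted in both chains (Cd8 Δab/Δab), and made CD8α and CD8β from cDNAs in the Rosa26 locus once Cre, expressed under Cd4 regulatory elements from the Cd4-Cre transgene, had removed a stop cassette. All cells sequenced therefore came from animals with enforced CD8 expression and without this class II chain. Libraries of wild-type mice were not analysed here, so that no difference between genotypes could be measured, and the age of the mice and any pooling of animals are not given in the sources used here.

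Runx proteins bind DNA through the Runt domain, and CBFβ, which does not itself contact DNA, strengthens that binding. The dimer recruits corepressors of the TLE family and coactivators such as p300, and so represses or activates depending on the gene. In thymocytes Runx1 takes part in early differentiation and in silencing of Cd4 before the coreceptors are expressed, whereas Runx3 is the member known for stable silencing of Cd4 and for the cytotoxic programme in the CD8 lineage. Runx2 is best known as the regulator of osteoblast differentiation, and it is also transcribed in immature thymocytes and some T cells. Each Runx gene of mammals can be transcribed from a distal and a proximal promoter, which give proteins with different N termini.

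The locus of each member is given on GRCm38, the same assembly as mm10, from the GENCODE M21 annotation. Runx1 (ENSMUSG00000022952.17), read from the minus strand, covers positions 92601466 to 92826149 of chromosome 16 and has 7 annotated transcripts. Runx2 (ENSMUSG00000039153.16), also minus, covers positions 44495987 to 44814797 of chromosome 17 with 13 transcripts. Runx3 (ENSMUSG00000070691.10), read from the plus strand, covers positions 135120652 to 135177990 of chromosome 4 with 6 transcripts. Cbfb (ENSMUSG00000031885.14), also plus, covers positions 105170674 to 105217989 of chromosome 8 with 7 transcripts. The merged exons summed to 12.0 kb in Runx1, 8.84 kb in Runx2, 5.003 kb in Runx3 and 3.48 kb in Cbfb, so that equal numbers of reads mean unequal levels per length. The annotated starts of the coding transcripts of Runx1 are spread over 130654 bases and those of Runx3 over 31844 bases, against 271 bases in Cbfb.

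The 3 Runx genes share a sequence at their distal start sites, which is shown because the counts of each gene add up transcripts from all of its start sites. RefSeq promoters on GRCm38.p6, taken from 250 bases before to 50 bases after the annotated start, were searched on both strands for the Runx core site ACCACA, which reads TGTGGT on the other strand. The distal promoters of Runx1 and Runx3 and the RefSeq promoter of Runx2 each held a pair of core sites 2 bases apart on the strand of the gene. In the 30-base windows below, written 5′ to 3′ on the strand of the gene, capitals mark the core sites.
Runx1: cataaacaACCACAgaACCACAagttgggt
Runx2: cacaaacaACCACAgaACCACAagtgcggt
Runx3: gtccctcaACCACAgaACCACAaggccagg
The Runx1 window lies at chr16:92826025-92826054 on the minus strand, with the pair starting at position 29, counted from 1 at the first transcribed base of the RefSeq start. The Runx2 window is at chr17:44814583-44814612 on the minus strand, with the pair starting at position 24. The Runx3 window is at chr4:135120503-135120532 on the plus strand, with the pair starting at position -134, that is 134 bases before the first transcribed base. A run of 18 bases was identical in all 3 windows. Such a pair was present in 7 of 32851 RefSeq promoters (0.0213%), while at least 1 core site was present in 5506 (16.8%). One of the 7 is the promoter of Gm16225, a long intergenic RNA gene on the opposite strand beside the distal start of Runx3, where the same stretch of chromosome 4 is read. The proximal promoters of Runx1 and Runx3 and the promoter of Cbfb held no core site in these windows. These matches are descriptions of letters, and binding was not measured.

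The Runx proteins also share their C-terminal end, the motif through which TLE corepressors are bound. The last 5 codons, in capitals, and the stop codon of the representative coding sequences were as follows.
Runx1: GTGTGGCGGCCCTACtga
Runx2: GTTTGGCGGCCATATtga
Runx3: GTGTGGCGGCCCTACtaa
All 5 of the last residues were identical in the 3 genes, although 12 of the 15 bases were. The coding sequences differed in length, with 465 codons in Runx1, 528 in Runx2, 423 in Runx3 and 187 in Cbfb. The longest run of identical bases was 38 between the coding sequences of Runx1 and Runx3 and 26 between Runx2 and either paralog, all shorter than the 50-base reads. No 50-base window of annotated transcripts was shared between any of the 4 genes, so that a perfectly matching read within an annotated transcript belonged to at most 1 of them.

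The depth was similar in both libraries. Reads counted on genes numbered 16732644 in replicate 1 and 16245849 in replicate 2, and a count of 0 allowed up to 0.179 and 0.185 CPM, that is counts scaled to a total of 1000000 on genes. The 7 T-cell markers examined, among them Cd3e and Lck, summed to 3635 CPM in replicate 1 and 3673 in replicate 2. Double-positive thymocyte markers summed to 6.22 and 7.20 CPM. Of 3 erythroid markers, Hba-a1 and Hbb-bs had no read in either library and Alas2 had 8 and 10. B-cell markers summed to 146 and 151 CPM, mostly from Ighm with 2221 and 2209 reads, and myeloid and dendritic markers to 21.8 and 22.1 CPM, mostly from Csf1r and Fcer1g. Markers of epithelium and stroma summed to 80.4 and 72.2 CPM, mostly from Pecam1. The part of these cells in the levels of the members was not tested. Cd4, the gene of the coreceptor gated out, had 12 and 27 reads, 0.717 and 1.66 CPM. The sample titles name a CD4-CD8- population and the cell type field a CD8+ population, which the labels do not reconcile. Xist had 34 reads in replicate 1 and 25266 in replicate 2, whereas the Y-linked gene Ddx3y had 2450 and 0, so the libraries differed in their sex-linked transcripts.

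Runx3 had the highest count of the 4 genes, followed by Cbfb, and Runx1 and Runx2 were both several times lower. Runx3 had 3633 reads in replicate 1 and 3892 in replicate 2, that is 217 CPM (exact 95% interval, 210 to 224) and 240 CPM (232 to 247). The mean was 228 ± 15.9 CPM (SD, n = 2). Cbfb had 3265 and 3316 reads, 195 CPM (188 to 202) and 204 CPM (197 to 211), with a mean of 199.6 ± 6.35 CPM. The values of these 2 genes did not overlap between libraries, since the higher library of Cbfb lay below the lower library of Runx3, although the exact intervals of Cbfb in replicate 2 and Runx3 in replicate 1 overlapped, from 210 to 211 CPM. Runx1 had 567 and 637 reads, 33.9 CPM (31.2 to 36.8) and 39.2 CPM (36.2 to 42.4), with a mean of 36.5 ± 3.76 CPM. Runx2 had 440 and 547 reads, 26.3 CPM (23.9 to 28.9) and 33.7 CPM (30.9 to 36.6), with a mean of 29.98 ± 5.21 CPM. The ranges of Runx1 and Runx2 lay side by side, with the higher library of Runx2 just under the lower library of Runx1. Each of the 4 genes was higher in replicate 2 than in replicate 1 on this scale. The intervals were computed from the count of a single library and cover counting error only. The reads carry no molecular identifiers, so amplified copies could not be told from separate molecules. The labels do not say how many animals gave each library, and the sex-linked transcripts above show that the libraries did not come from the same animals. In sorted cells counted in bulk, fewer cells with a transcript and less transcript per cell cannot be told apart.

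**Figure D1:**
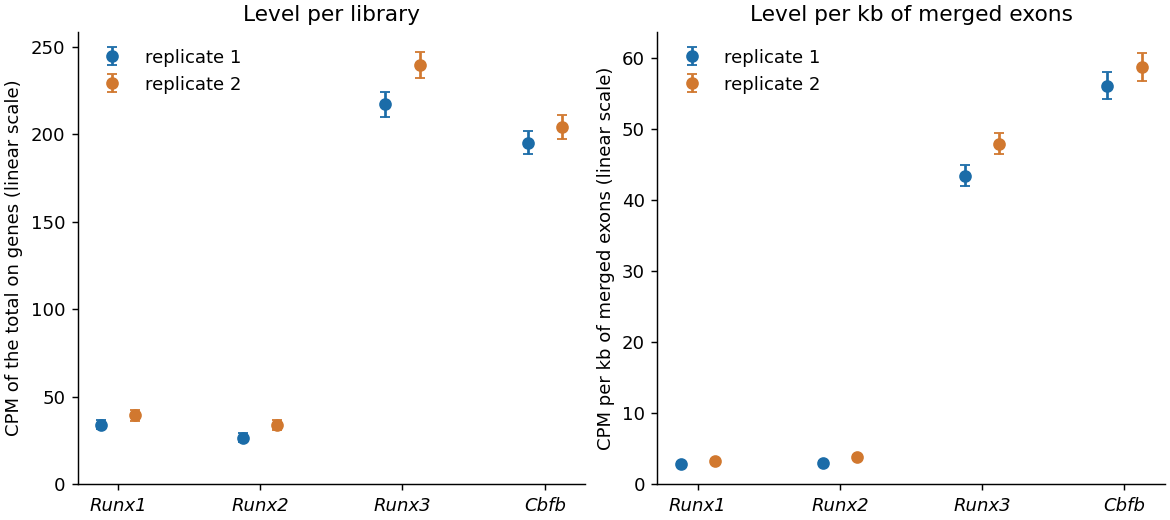
Level of the 4 genes in each library, in CPM of the total on genes (left) and in CPM per kb of merged exons (right), both on linear axes from 0. Points are single libraries and bars are exact 95% intervals for counting error. Runx3, at 217 and 240 CPM, lies above Cbfb on the left, and Cbfb, at 56.1 and 58.7 CPM per kb, lies above Runx3 on the right, while Runx1 and Runx2 stay low in both.

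Comparison between genes requires the level per length, and on that scale Cbfb stood first. Divided by the kb of merged exons, Cbfb was at 56.1 and 58.7 CPM per kb in replicates 1 and 2, with a mean of 57.4 ± 1.83. Runx3 followed at 43.4 and 47.9 CPM per kb, with a mean of 45.6 ± 3.17. Runx2 was at 2.98 and 3.81 CPM per kb, with a mean of 3.39 ± 0.590, and Runx1 at 2.82 and 3.26 CPM per kb, with a mean of 3.04 ± 0.313. Runx3 was thus separated from both paralogs by far more than the spread between libraries, whereas the ranges of Runx1 and Runx2 overlapped. Among 10546 protein-coding genes with a mean of at least 1 CPM, ordered by CPM per kb, Cbfb ranked 565, Runx3 765, Runx2 7243 and Runx1 7513.

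Runx3 made up most of the Runx mRNA counted in these thymocytes. Its share of the summed level of the 3 Runx genes per kb of merged exons was 88.2% in replicate 1 and 87.1% in replicate 2 (87.7% ± 0.770, SD, n = 2). Runx1 made up 5.73% and 5.93%, and Runx2 6.05% and 6.93%. The mean share of Runx1 was 8.94% with the longest transcript, 11.7% with the coding length and 12.4% without a length, that of Runx2 was 6.63%, 7.49% and 10.1%, and that of Runx3 84.4%, 80.8% and 77.5%. Within each library, Runx3 per kb was 15.0-fold ± 0.506 above Runx1 and 13.6-fold ± 1.43 above Runx2. Its excess over Runx1 became smaller when other lengths were used, 9.44-fold with the longest transcript and 6.88-fold with the longest coding sequence, and the excess over Runx2 was 12.8-fold and 10.8-fold. Without any correction for length Runx3 had 6.26 times the reads of Runx1 and 7.69 times those of Runx2. Runx3 was therefore the highest Runx gene in both libraries under all 4 lengths and without a length, while the size of its excess depended on the length chosen.

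The order of the other two Runx genes could not be settled from these counts. The ratio of Runx2 to Runx1 per kb of merged exons was 1.06 in replicate 1 (exact conditional 95% interval, 0.930 to 1.20) and 1.17 in replicate 2 (1.04 to 1.31). The direction turned with the length: the mean ratio was 1.11 with merged exons, but 0.741 with the longest transcript, 0.638 with the longest coding sequence and 0.817 without a length. The merged exons of Runx1 sum to 12025 bases, against 5861 bases in its longest transcript, whereas those of Runx2 sum to 8837 and 6463 bases. Which of the annotated transcripts these cells used was not measurable from counts per gene, and neither was the use of the distal and proximal promoters.

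Cbfb was close in level to the 3 Runx genes together. Its ratio to their sum, per kb of merged exons, was 1.14 in replicate 1 and 1.07 in replicate 2 (1.10 ± 0.0513). The ratio was 1.60 with coding lengths, but fell to 0.993 with the longest transcripts, with the libraries on either side of 1 (1.03 and 0.960), and to 0.678 without a length, so that no excess of either was shown. Against Runx3 alone, Cbfb per kb was 1.29-fold in replicate 1 (exact conditional 95% interval, 1.23 to 1.35) and 1.22-fold in replicate 2 (1.17 to 1.28). That ratio was 1.18 with the longest transcripts and 1.98 with coding lengths, and it turned to 0.875 without a length. Against Runx1, Cbfb per kb was 19.9-fold and 17.99-fold higher, and the mean ratio was 11.1 with the longest transcripts, 13.6 with coding lengths and 5.48 without a length. These are ratios of mRNA, and protein was not measured.

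**Figure D2:**
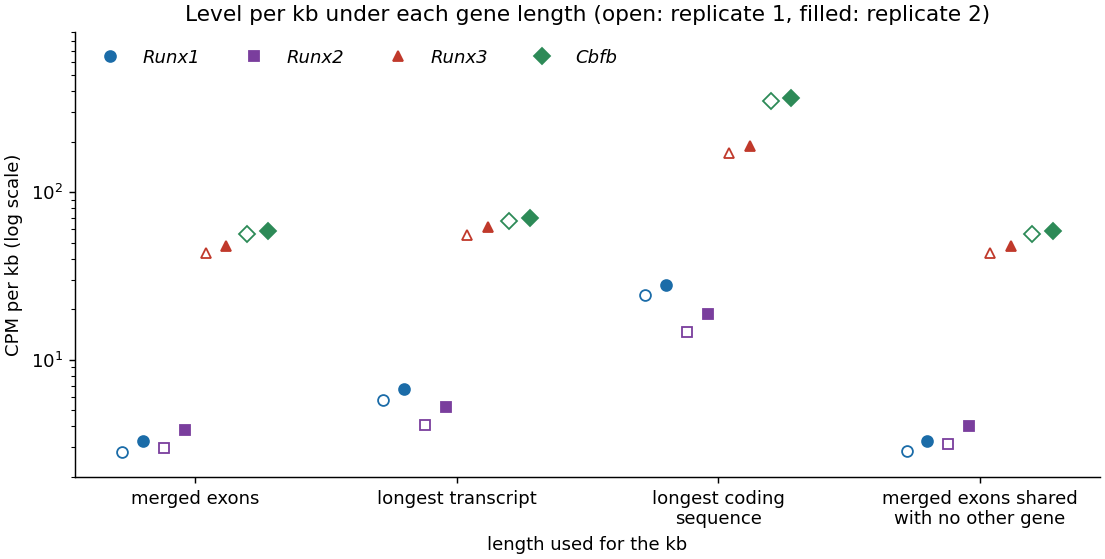
CPM per kb (log scale) of the 4 genes when the kb is that of the merged exons, the longest transcript, the longest coding sequence or the merged exons that overlap no other gene. Open symbols are replicate 1 and filled symbols replicate 2. Runx3 and Cbfb stay above Runx1 and Runx2 throughout, Cbfb stays above Runx3, and Runx1 and Runx2 change places between merged exons (3.04 and 3.39 CPM per kb) and longest transcripts (6.24 and 4.64).

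Genes on the opposite strand share exon bases with Runx1 and Runx2, whereas no annotated gene shares exon bases with Runx3 or Cbfb. Gm26626, an antisense gene, shares 106 of its 796 exon bases with Runx1. Over all its exons it had 38 and 29 reads, equal to 6.70% and 4.55% of the reads of Runx1. Runx2os1, an antisense gene, shares 519 of its 792 exon bases with Runx2. Over all its exons it had 34 and 48 reads, equal to 7.73% and 8.78% of the reads of Runx2. The strand setting of the counting is not given in the sources used here. It is therefore not known whether reads in the shared bases were counted for the Runx gene, for its partner, or as ambiguous between genes. Reads counted as ambiguous, 1449905 in replicate 1 and 1151315 in replicate 2 over the whole libraries, were not part of the levels. Of the 50-base windows of Runx2 transcripts, 5.66% also occurred in another annotated gene, mostly Runx2os1, against 0.471% in Runx1, 1.13% in Runx3 and 0% in Cbfb. The shared windows of Runx3 occurred in 573 other genes. With the shared exon bases left out of the length, the levels were 3.07 CPM per kb for Runx1 and 3.60 for Runx2, near those with all exons. Only the length changed there, and no read was left out of the counts. Inside the Runx3 span, Gm16224 on the opposite strand had 71 and 40 reads and no exon base in common with Runx3. Gm16225, which lies beside the distal start of Runx3 and whose promoter holds the same paired core sites, had 3 and 2 reads. Supt3, a coding gene that runs across Runx2 on the opposite strand, had 104 and 92 reads and likewise shares no exon base with it.

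Among 22 transcription factors of the T lineage, set out with the 4 members by CPM per kb of merged exons, Cbfb and Runx3 stood sixth and seventh of 26 genes. Eomes, a T-box factor of memory and cytotoxic cells, stood just above both, at 47.1 and 85.3 CPM per kb, and its range included both values of Cbfb and the higher value of Runx3. Bcl11b, a factor required for commitment to the T lineage, stood just below, at 38.0 and 40.6 CPM per kb, under both values of Runx3. Runx2 and Runx1 stood at ranks 24 and 25. Zbtb16, which encodes the innate-like lineage factor PLZF, was just above them at 3.45 and 4.09 CPM per kb, and its range overlapped that of Runx2 but not that of Runx1. Zbtb7b, which encodes the helper-lineage factor ThPOK, was just below at 2.76 and 3.24 CPM per kb, and its range overlapped those of Runx1 and Runx2. Tcf7, the gene for TCF-1, stood first at 323 and 310 CPM per kb, some way above Runx3. With the longest transcript as the length Cbfb was at rank 8, Runx3 at rank 10, Runx1 at rank 23 and Runx2 at rank 24, and Zbtb16 then stood below both, at rank 25. Genes whose pattern is most like that of a member could not be named, because likeness cannot be measured over 2 libraries.

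**Figure D3:**
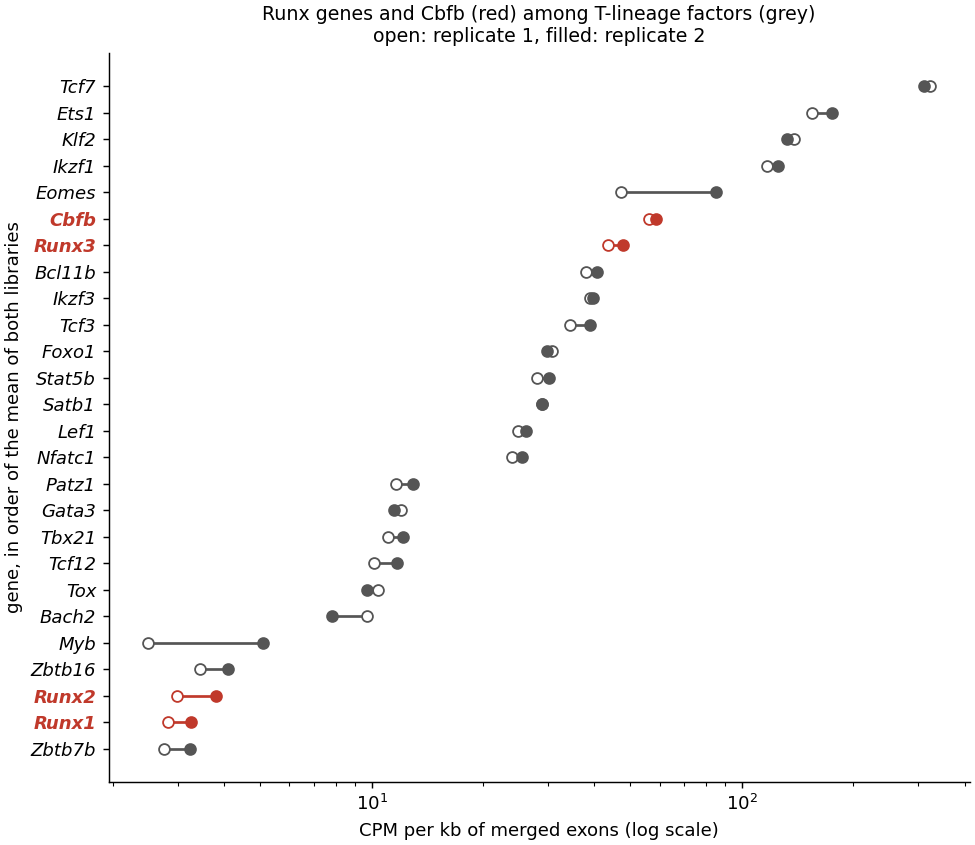
Level of Runx1, Runx2, Runx3 and Cbfb (red) and of 22 T-lineage transcription factors (grey), in CPM per kb of merged exons on a log axis, in order of the mean. Open points are replicate 1, filled points replicate 2, and the line joins them. Cbfb and Runx3 lie between Eomes and Bcl11b, and Runx2 and Runx1 lie near the end of the order between Zbtb16 and Zbtb7b.

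The libraries were then compared gene by gene with a two-sided exact binomial test of the reads in replicate 2 among the reads in both, with Benjamini-Hochberg adjustment over the 15949 genes with at least 10 reads. The test compares these 2 libraries beyond counting error, and says nothing of a condition. Runx2 was 1.28-fold higher in replicate 2 (95% interval, 1.13 to 1.45, adjusted p = 0.00163 by the exact test). Runx3 was 1.10-fold higher (1.05 to 1.15, exact test, adjusted p = 0.000359). Runx1 was at 1.16-fold (1.03 to 1.30) and did not pass (exact test, adjusted p = 0.0669), and Cbfb was at 1.05-fold (0.996 to 1.10) and did not pass either (exact test, adjusted p = 0.223). Thus 2 of the 4 genes passed an adjusted p of 0.05, in a comparison in which 16.3% of all genes tested passed and 13.5% passed with the higher level in replicate 2. Of the 5719 genes with at least 1000 reads, like Runx1, Runx3 and Cbfb, 31.2% passed. None of the 4 genes reached a 2-fold difference together with an adjusted p of 0.05, as 1.52% of the genes tested did.

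Part of this shift was common to most genes. The median log2 ratio of replicate 2 to replicate 1 over all genes tested was 0.08, against 0.21 for Runx1, 0.36 for Runx2, 0.14 for Runx3 and 0.06 for Cbfb. Of the genes that passed, 82.7% were higher in replicate 2, but 48.1% were so with edgeR TMM library sizes, 57.3% with DESeq2 size factors and 59.9% when mitochondrial and ribosomal RNA genes were left out of the total. Of the 15949 genes tested, 1688, 1731 and 1750 passed under these scalings in turn. Runx2 passed under each of these scalings (exact test, adjusted p = 0.0306, 0.0185 and 0.0153). Runx3 did not pass under any of them (exact test, adjusted p = 0.246, 0.108 and 0.0810), and the direction of Cbfb turned with TMM sizes, to a log2 ratio of -0.014. An exact test in edgeR with the biological coefficient of variation fixed at 0.1 called 74 genes (824 at an unadjusted p under 0.05), and 0 of the 4, with unadjusted p = 0.350 for Runx1, 0.114 for Runx2, 0.494 for Runx3 and 0.756 for Cbfb.

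Of 5 markers of NK and innate lymphoid cells, 3 passed with the higher level in replicate 2 (Ncr1, Klrb1c and Eomes), and 2 did so with each of the scalings above. Over all genes tested 16.3% passed, 13.5% with the higher level in replicate 2. With those scalings in turn, 812, 992 and 1048 of the 15949 genes tested passed with the higher level in replicate 2. Of genes with at least 1000 reads, such as Eomes, 31.2% passed on the CPM scale. Summed over the 5 markers, the level was 230 and 397 CPM in replicates 1 and 2, mostly from Eomes, which memory-like CD8 T cells also express. Ncr1, which encodes an activating receptor of NK cells, had 45 and 112 reads, 2.69 and 6.89 CPM. Kit had 157 and 130 reads and Il1rl1 had 6 and 4, and neither passed. Of 7 markers of mature thymocytes, 3 passed with the lower level in replicate 2 (among them Ccr7 and S1pr1) and 1 with the higher level (H2-K1). With TMM sizes these counts were 6 and 0. They were 5 and 1 with DESeq2 size factors, and also without mitochondrial and ribosomal RNA genes in the total. Over all 15949 genes tested, 450 passed with the lower level in replicate 2. This number was 876 with TMM sizes, 739 with DESeq2 size factors and 702 without mitochondrial and ribosomal RNA genes in the total. Each of the 7 markers had at least 1000 reads, and 31.2% of such genes passed in either direction on the CPM scale. S1pr1, the receptor that lets mature thymocytes leave the thymus, was at 318 and 227 CPM, and H2-K1, a class I gene, at 2637 and 2830 CPM. The part of these differences, and of that in sex-linked transcripts, in those of Runx2 and Runx3 was not tested.

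**Figure D4:**
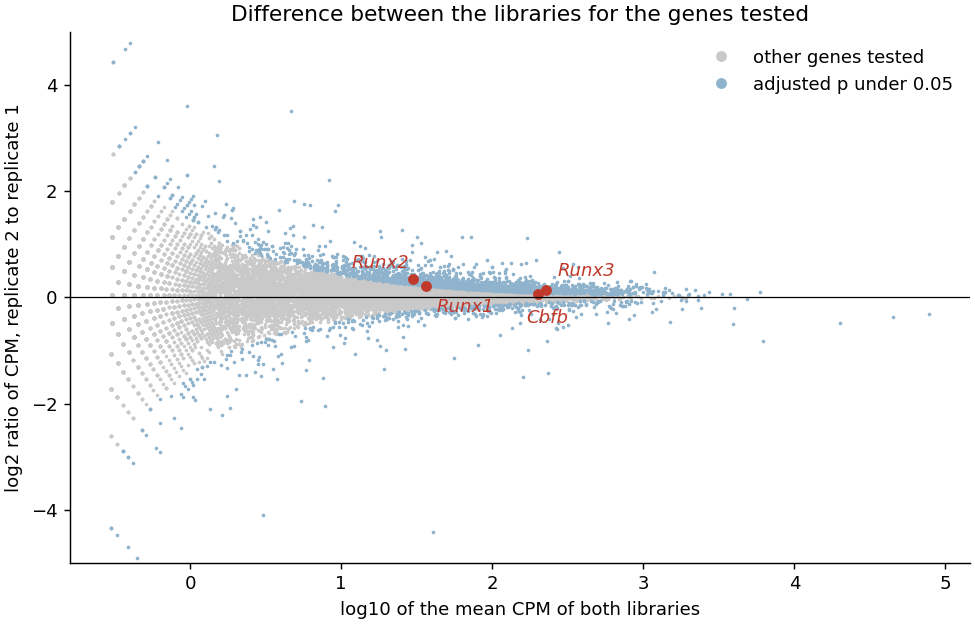
Log2 ratio of CPM in replicate 2 to replicate 1, with 0.5 added to each count, against the log10 mean CPM of both libraries, for the 15949 genes tested. For the points of the 4 members nothing was added to the counts. Blue points passed an adjusted p of 0.05, grey points did not, red points are the 4 members, and 8 genes lie outside the plotted range. The members lie between 0.06 and 0.36, within the cloud of other genes.

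Of 19 genes whose products work with Runx complexes, 17 were at 1 CPM or above in both libraries. The full-length TLE corepressors, Tle1 to Tle4, bind the shared C-terminal motif printed above. Of their genes, Tle3 was at 19.6 ± 0.271 and Tle4 at 17.2 ± 0.734 CPM per kb (SD, n = 2). Tle1 and Tle2 were far lower, at 0.497 ± 0.123 and 0.317 ± 0.0411 CPM per kb. Aes, which encodes a short family member outside that group, was at 106 ± 7.65 CPM per kb, above every Runx gene and Cbfb. Ets1, which binds DNA together with Runx1, was at 165 ± 14.5 CPM per kb. Of the ETO family corepressor genes, Cbfa2t2 was at 2.40 ± 0.0192 CPM per kb, near the level of Runx1 and Runx2, while Cbfa2t3 had 4 and 14 reads. Runx1t1, which shares a name with Runx1 but no Runt domain, had 1 read in each library. The histone deacetylase genes Hdac1 and Hdac3 were at 24.6 ± 0.849 and 11.3 ± 0.0994 CPM per kb, Sin3a, a corepressor scaffold, at 19.0 ± 0.820, and the acetyltransferase genes Ep300 and Crebbp at 15.7 ± 0.239 and 11.0 ± 0.0893. Between the libraries, 6 of the 18 genes tested passed with the higher level in replicate 2 (Aes, Ets1, Prmt1, Hipk2, Cdk6 and Smurf1) and 1 with the lower level (Smurf2). Over all genes tested 16.3% passed, and 31.2% of those with at least 1000 reads. With TMM sizes the counts of this list were 3 and 3, beside 812 and 876 of the 15949 genes tested. The median log2 ratio of the 18 was 0.09, beside 0.08 over all genes tested.

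Genes known to be repressed by Runx complexes in T cells were in part near the limit of counting. Rag1, which encodes a subunit of the V(D)J recombinase, had 8 and 19 reads, and the cytokine gene Il4 had 11 and 7. The mean of Cd4 was 1.19 ± 0.668 CPM, in cells sorted as CD4-. Zbtb7b stood higher, at 15.4 and 18.1 CPM. Cd69, an early activation receptor, was at 116 and 99.5 CPM, and it alone of the 5 passed between the libraries, with the lower level in replicate 2 (exact test, adjusted p = 0.000108). Over all genes tested 16.3% passed, and 31.2% of those with at least 1000 reads, such as Cd69 with 1942 and 1617 reads. The others of the list had at most 294 reads in a library, so the test had less power for them.

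Genes known to be activated by Runx complexes were all present, with 10 of 10 at 1 CPM or above in both libraries and a median of 142 CPM. Itgae, the integrin αE chain that Runx3 controls in CD8 cells, was at 539 and 432 CPM. Il2rb, the IL-2 and IL-15 receptor β chain, was at 523 and 593 CPM, and Il7r, the IL-7 receptor α chain, at 361 in both. Of the cytotoxic genes, Prf1, which encodes perforin, was at 106 and 130 CPM, Gzmb, a granzyme, at 27.6 and 20.4 CPM, and Ccl5, a chemokine gene, at 47.9 and 71.2 CPM. Ifng was lowest of the 10, at 4.66 and 3.14 CPM. Cd8a was at 158 and 171 CPM, but its locus was altered in these mice and CD8α was made from Rosa26, so that its count is no measure of the endogenous gene. Cd8a is nevertheless included in the 10 of 10, in the median and in the counts that follow. Between the libraries, 5 genes passed with the higher level in replicate 2 (Cd8a, Il2rb, Prf1, Eomes and Ccl5) and 2 with the lower level (Itgae and Gzmb), or 4 and 3 with TMM sizes. Over all genes tested 16.3% passed, 13.5% with the higher level in replicate 2, and 31.2% of the genes with at least 1000 reads passed. With TMM sizes, 812 of the 15949 genes tested passed with the higher level in replicate 2 and 876 with the lower level. The list's median log2 ratio was 0.13, beside 0.08 over all genes tested. With no library from another genotype, none of these levels can be set against the level of a Runx gene.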

How the data were processed

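RNA-seq of sorted thymocytes was analysed in 2 libraries of 1 group. Per the labels, single-end reads of 50 bases were obtained, and the submitters' processing notes name TopHat2 2.1.1 and HTSeq 0.6.1 on mm10. The authors deposited raw read counts per gene. The annotation and strand setting are not given in the sources used here. Rows that name no gene held 75.7% and 74.6% of all counts and were left out.

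Levels were computed as CPM of the total on genes (16732644 and 16245849 reads), and per kb from GENCODE M21 exons (46394 of 48321 symbols matched), with exact Clopper-Pearson 95% intervals, and a floor of 3 counts. Libraries were compared by an exact binomial test (scipy 1.17.1, statsmodels 0.14.6), tested on simulated data. With 1 group, no quasi-likelihood test was possible. Alternatives used edgeR 4.0.16 and DESeq2 1.42.0 (R 4.3.3), other lengths, other count minimums and leaving out each library. Sequences came from RefSeq promoters and GENCODE transcripts. All 4 members were named in full, partner, target and factor lists by counts and in list order, and T-lineage neighbours in level. Members and lists were chosen with earlier results of these data known, and Xist and Ddx3y after their values were seen.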

Additional observations from a re-analysis of the deposited data

How the results depend on the processing

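The levels in CPM moved by less than the spread between the libraries with TMM sizes and DESeq2 size factors. Without mitochondrial and ribosomal RNA genes in the total they were 42.6 for Runx1, 266 for Runx3 and 233 for Cbfb, since the smaller total raises every gene. Leaving out each replicate gave 33.9 to 39.2 CPM for Runx1, 26.3 to 33.7 for Runx2, 217 to 240 for Runx3 and 195 to 204 for Cbfb. Ratios per kb depended on the length. For the longest transcript, the longest coding sequence and no length in turn, Runx1 to Runx3 was 0.106, 0.145 and 0.160 (0.0665 with merged exons), Runx2 to Runx1 was 0.741, 0.638 and 0.817, Cbfb to Runx3 was 1.18, 1.98 and 0.875, and Cbfb to the Runx sum was 0.993, 1.60 and 0.678. Runx2 to Runx3 was 0.0929 with coding lengths and 0.131 with no length (0.0741 with merged exons). Leaving exon bases shared with other genes out of the length moved no level or ratio beyond the spread. The counts were unchanged, so the part of reads in those bases was not tested. Genes called between the libraries numbered 2596, with 1688 under TMM sizes and 74 with edgeR at a fixed variation. Those also 2-fold apart numbered 242, with 55 at a minimum of 100 reads and 60 with edgeR. The log2 ratio of Cbfb turned to -0.014 under TMM sizes. No paired analysis was possible because the series holds 1 group. Depth limits Runx1 and Runx2 most, at 440 to 637 reads per library.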
